A study of Mus musculus with 12 samples.

Results

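The levels of 10 genes of brown and white fat cells, out of 55487 genes in the count table, were read in RNA from whole mouse kidneys as a measure of perirenal fat attached to the organ. They were Ucp1 (ENSMUSG00000031710), Cidea (ENSMUSG00000024526), Adipoq (ENSMUSG00000022878), Plin1 (ENSMUSG00000030546), Cidec (ENSMUSG00000030278), Cfd (ENSMUSG00000061780), Lep (ENSMUSG00000059201), Retn (ENSMUSG00000012705), Car3 (ENSMUSG00000027559) and Fabp4 (ENSMUSG00000062515). They were chosen by symbol with their counts in these 12 libraries already known, so all values of the 10 genes are given as a description, with no test. Each symbol matched 1 gene of the table, and all 10 genes passed the filter on low counts. The study asked which pathways change in fibrotic and cystic kidneys after loss of Cep120, a centriole protein, and after loss of Pkd1, which encodes polycystin-1. The Cre line was Hoxb7-Cre, which acts in the ureteric bud and the collecting ducts that grow from it. Each line gave 3 KO libraries and 3 control libraries, all from mice at postnatal day 15. Titles call the controls het and the genotype label calls them WT, so which alleles they carried is not settled by the labels. KO titles say homo. Whether replicates are different animals is not stated in the labels, so each p-value below measures at most how far libraries spread.

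White fat cells store triglyceride in 1 large lipid droplet and release hormones, while brown fat cells hold many small droplets and burn fatty acids in mitochondria uncoupled by Ucp1. Fat lies around the kidney and its vessels, and in young mice this perirenal depot holds much brown fat. Adiponectin, encoded by Adipoq, is made by both kinds of fat cell, whereas leptin and resistin are known as products of white fat.

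Library totals ran from 23070688 to 31837958 counts. A gene with 3 counts or fewer is read here as not detected, and at that depth 3 counts equal 0.0966 to 0.151 CPM, counts scaled to library size. These limits cover counting error only. All 8 kidney genes checked (among them Umod, of the thick ascending limb, and Slc34a1, of the proximal tubule) were detected in every library, with a summed level of 5317 to 8037 CPM in the 9 control and Cep120 KO libraries and 2762 to 4262 CPM in Pkd1 KO. The targeted genes did not fall in the KO libraries, with Cep120 at 16.6 to 20.4 CPM in Cep120 KO against 13.7 to 18.7 CPM in its controls, and Pkd1 at 23.9 to 36.4 CPM in Pkd1 KO against 13.9 to 21.6 CPM in its controls. Whole kidney holds many cells that Hoxb7-Cre does not reach, so these levels do not check the labels. Xist, the X-inactivation RNA of female mice, was 50 to 141 CPM in the 6 controls and 184 CPM in Cep120 KO 3, and 0 to 0.325 CPM in Cep120 KO 1 and 2 and all 3 Pkd1 KO libraries. Every difference between Pkd1 KO and its controls below is therefore also one between libraries without and with Xist, and the 2 cannot be told apart. The library labelled Pkd1 KO 3 also held adrenal RNA. The adrenal steroid genes Cyp11b1 and Hsd3b1 stood there at 438 and 674 CPM. The summed level of 5 tested adrenal genes, which do not include Hsd3b1, was 997 CPM against 2.36 to 6.97 CPM in the other 11 libraries. In whole tissue, fewer fat cells and less RNA per fat cell cannot be told apart.

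Promoters were read for 7 of the 10 genes from RefSeq (build GRCm38.p6), as 250 bases before and 50 after each start site, in 8 windows because Cidec has 2. The letters searched on both strands were the C/EBP site TTNNGCAA, found in 10.8% of all 32851 promoters of the same length, the PPAR and RXR core letters AGGTCA in 16.3%, and the TATA box TATAAA in 13.6%. The promoters of 4 genes on which the results turn are printed. They are Ucp1, which was low relative to Adipoq in Pkd1 KO, Adipoq itself, Lep, which was high in all 3 Pkd1 KO libraries, and Plin1. The 250 bases before the start site are given 5′ to 3′ on the gene's strand, with pattern matches in capitals.
Ucp1 promoter: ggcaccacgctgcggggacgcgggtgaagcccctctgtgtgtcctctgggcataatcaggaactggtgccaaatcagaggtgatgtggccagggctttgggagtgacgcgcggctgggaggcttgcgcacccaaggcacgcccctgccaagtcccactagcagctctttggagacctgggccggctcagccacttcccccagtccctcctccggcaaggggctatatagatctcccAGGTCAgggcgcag
Adipoq promoter: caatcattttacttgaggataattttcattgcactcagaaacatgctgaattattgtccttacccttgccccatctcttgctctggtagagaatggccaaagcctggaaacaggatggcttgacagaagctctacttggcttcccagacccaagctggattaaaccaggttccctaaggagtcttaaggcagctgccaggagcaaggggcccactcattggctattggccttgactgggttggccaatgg
Lep promoter: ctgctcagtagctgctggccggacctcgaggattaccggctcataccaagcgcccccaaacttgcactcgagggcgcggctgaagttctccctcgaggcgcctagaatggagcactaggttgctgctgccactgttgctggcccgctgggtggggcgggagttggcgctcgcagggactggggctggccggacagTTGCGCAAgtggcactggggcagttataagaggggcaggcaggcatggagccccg
Plin1 promoter: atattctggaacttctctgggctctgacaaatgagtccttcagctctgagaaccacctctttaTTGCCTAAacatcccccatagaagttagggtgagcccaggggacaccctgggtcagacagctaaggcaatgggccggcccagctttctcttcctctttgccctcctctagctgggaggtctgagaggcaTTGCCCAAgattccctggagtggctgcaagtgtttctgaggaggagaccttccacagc
The Ucp1 window lies at chr8:83290098-83290347 on the plus strand and the Adipoq window at chr16:23146286-23146535 on the plus strand. The Lep window lies at chr6:29059971-29060220 on the plus strand and the Plin1 window at chr7:79732777-79733026 on the minus strand. Ucp1 held AGGTCA at bases -14 to -9 from its start site. Lep held the C/EBP letters TTGCGCAA at -55 to -48, which read the same on both strands. Plin1 held 2 such matches, TTGCCTAA at -187 to -180 and TTGCCCAA at -58 to -51. The Cidec window at chr6:113434765-113435014 (minus strand) held TTGCTCAA at -198 to -191. These letters were not in the windows of Adipoq, Retn and Cfd, nor in the other Cidec window. TATAAA was in none of the 8 windows. A match is a description of the letters only.

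Ucp1 encodes the mitochondrial proton carrier that makes brown fat produce heat. Its level was 90.6, 132 and 193 CPM in Cep120 controls 1 to 3 and 0.654, 0.0651 and 136 CPM in Cep120 KO 1 to 3. It was 184, 239 and 27.8 CPM in Pkd1 controls 1 to 3 and 7.48, 0.161 and 1.11 CPM in Pkd1 KO 1 to 3. Cep120 KO 3 lay within the range of its controls and the other two Cep120 KO libraries far below it, while all 3 Pkd1 KO libraries lay below all Pkd1 controls. In counts, Ucp1 had 17 in Cep120 KO 1 and 2 in Cep120 KO 2, which is not detected, against 2159 to 4761 in the Cep120 controls.

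Cidea encodes a lipid droplet protein that is abundant in brown fat. It stood at 55.3, 75.1 and 102 CPM in Cep120 controls and at 0.346, 0.228 and 73.9 CPM in Cep120 KO. In the Pkd1 line it stood at 88.4, 130 and 15.5 CPM in controls and at 26.7, 0.193 and 5.56 CPM in KO. Cep120 KO 1 and 2 were again close to 0 and KO 3 lay among the controls. In the Pkd1 line KO 1 lay above control 3, so the groups overlapped.

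Adipoq encodes the fat cell hormone adiponectin. Its level was 10.2, 15.6 and 18.8 CPM in Cep120 controls and 0, 0.0325 and 12.4 CPM in Cep120 KO. It was 16.5, 25.2 and 3.70 CPM in Pkd1 controls and 55.6, 0 and 29.0 CPM in Pkd1 KO. Only 3 libraries held 0 or 1 Adipoq count, namely Cep120 KO 1 and 2 and Pkd1 KO 2, while Pkd1 KO 1 and 3 were the 2 highest of all 12. In the remaining 7 libraries Adipoq had 98 to 506 counts.

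Cfd encodes adipsin, the complement factor D that fat cells secrete. It stood at 74.8, 97.3 and 82.0 CPM in Cep120 controls and at 0.154, 0.195 and 65.2 CPM in Cep120 KO. It stood at 70.8, 122 and 26.7 CPM in Pkd1 controls and at 452, 0 and 180 CPM in Pkd1 KO. All 3 Cep120 KO libraries lay below the Cep120 controls, KO 3 only narrowly, and the Pkd1 KO libraries lay on both sides of their controls. The 0 counts in Pkd1 KO 2 stand against 13345 in Pkd1 KO 1 and 5014 in Pkd1 KO 3.

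Cidec encodes a protein that fuses lipid droplets, and Plin1 encodes perilipin, which coats the droplet and gates lipolysis. Cidec was 13.1, 20.9 and 18.6 CPM in Cep120 controls and 0.0769, 0.0976 and 14.9 CPM in Cep120 KO. It was 21.1, 23.7 and 2.68 CPM in Pkd1 controls and 73.8, 0.483 and 24.9 CPM in Pkd1 KO. Cidec thus gave the pattern of Adipoq in both lines, with KO 3 inside the Cep120 control range. Of 4 annotated Cidec transcripts, 3 were read here and held 46.7% of the gene's estimated count. Plin1 was low throughout, from 0 CPM in Pkd1 KO 2 to 3.26 CPM in Cep120 control 2. Its 14 to 83 counts in the libraries with Adipoq make it one of the less precise of the 10 genes.

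Lep encodes leptin, the hormone that reports fat stores to the brain. It departed from the other fat genes. Its level was 0.462, 0.692 and 0.852 CPM in Cep120 controls and 0.692, 1.33 and 0.568 CPM in Cep120 KO. It was 1.92, 0.904 and 0.227 CPM in Pkd1 controls and 11.4, 6.86 and 15.4 CPM in Pkd1 KO. All 3 Pkd1 KO libraries exceeded every other library, Pkd1 KO 2 included, which held 213 Lep counts and 0 Adipoq counts. In Cep120 KO 1 and 2 Lep was also detected, with 18 and 41 counts, beside 0 and 1 for Adipoq. Of 2 annotated Lep transcripts, 1 was in the transcript table used here and held 0% of the gene's estimated count, so the Lep signal is not tied to a transcript here.

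Retn encodes resistin. It had 20, 29 and 11 counts in Cep120 controls and 0, 3 and 9 in Cep120 KO. It had 13, 34 and 14 counts in Pkd1 controls and 457, 0 and 258 in Pkd1 KO. In CPM this was 0.423 to 1.71 in Pkd1 controls against 15.5 and 9.26 in Pkd1 KO 1 and 3. Retn therefore lay far above its controls in the 2 Pkd1 KO libraries that held Adipoq and was listed at 0 in the one that did not. As for Lep, 1 of 2 annotated transcripts was read here, and it held 2.70% of the gene's estimated count. The Retn signal is thus largely not tied to a transcript here.

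Car3 encodes the cytosolic carbonic anhydrase III, abundant in fat, and Fabp4 the fatty acid binding protein of fat cells, macrophages and capillary endothelium. Car3 was 64.4, 86.1 and 95.5 CPM in Cep120 controls and 10.7, 13.9 and 108 CPM in Cep120 KO. It was 112, 136 and 37.4 CPM in Pkd1 controls and 536, 0.612 and 240 CPM in Pkd1 KO. Unlike Adipoq, Car3 kept 277 and 426 counts in Cep120 KO 1 and 2, and 19 counts in Pkd1 KO 2. Fabp4 was 357, 366 and 387 CPM in Cep120 controls and 211, 149 and 338 CPM in Cep120 KO. It was 396, 538 and 227 CPM in Pkd1 controls and 403, 42.9 and 254 CPM in Pkd1 KO. Fabp4 was thus never absent, and the lowest of its 12 levels was in Pkd1 KO 2. The summed level of 8 endothelial genes, among them Pecam1 and Cdh5, was 652 and 546 CPM in Cep120 KO 1 and 2 and 363 CPM in Pkd1 KO 2, so endothelial RNA was present in all 3 libraries without Adipoq. Its part in the remaining Fabp4 was not tested.

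**Figure D1:**
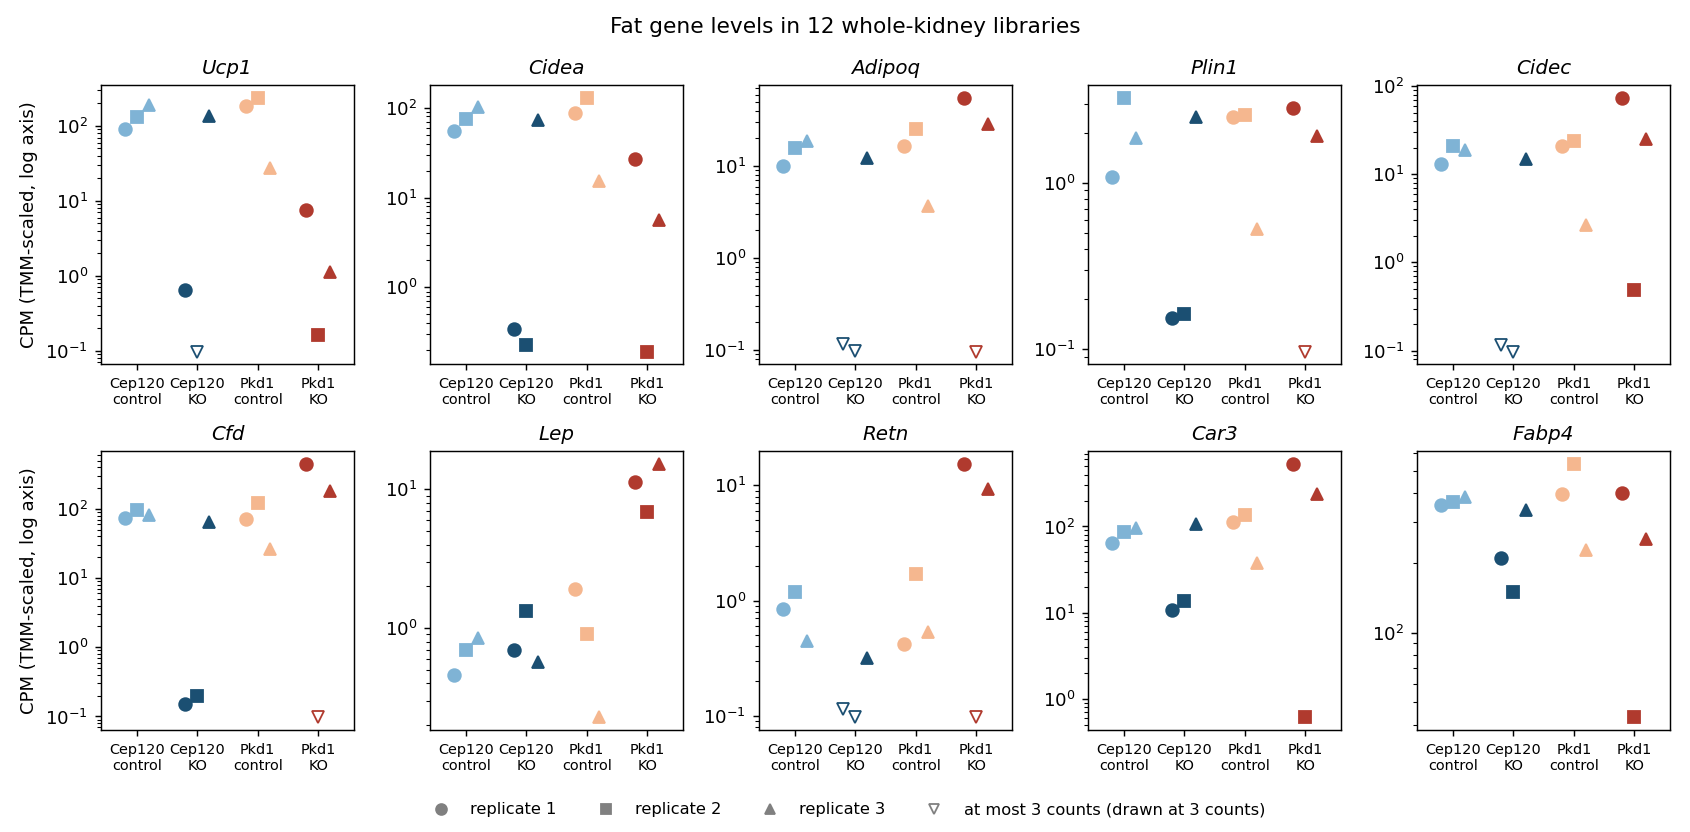
Level of each of the 10 fat genes in each library, in TMM-scaled CPM on a log axis, with 1 point per library, marker shape giving the replicate number, and open triangles for values of 3 counts or fewer, drawn at 3 counts. Cep120 KO 3 sits beside its controls while Cep120 KO 1 and 2 sit near the bottom in 7 of the 10 panels (not Lep, Car3 and Fabp4), and Lep is above all other groups in the 3 Pkd1 KO libraries.

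Summed over the 10 genes, the level was 668 to 900 CPM in Cep120 controls and 223, 165 and 752 CPM in Cep120 KO. It was 895, 1218 and 342 CPM in Pkd1 controls and 1584, 51.2 and 761 CPM in Pkd1 KO. Pkd1 control 3 was thus the lowest control, and Pkd1 KO held both the highest and the lowest library of the 12. In Cep120 KO 1, Cep120 KO 2 and Pkd1 KO 2 most of the sum was Fabp4, at 211, 149 and 42.9 CPM. The 3 libraries without Adipoq were among the 5 that lacked Xist, and Cep120 KO 3, the Cep120 KO library with fat RNA, was the KO library with Xist. Pkd1 KO 1 and 3 lacked Xist and had the most Adipoq of all 12.

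Fitted log2 differences of KO minus control are given for size only. For the Cep120 line the median over the 10 genes was -1.62, against 0.01 over all 19890 genes tested, with 1 gene above 0 and 9 below. The values ran from -2.51 for Retn, -1.95 for Cfd and -1.84 for Adipoq to 0.38 for Lep. KO and control libraries did not overlap for 3 genes, Cfd, Retn and Fabp4, all lower in KO. Of all tested genes, 7.88% had every KO library below every control in this comparison and 8.64% had every KO library above. In this comparison edgeR's quasi-likelihood test called 0 of the 19890 genes (0%), 1201 of them with an unadjusted p under 0.05, and DESeq2 called 21. Without Cep120 KO 3 the median of the 10 genes was -5.71, and without Cep120 KO 2 it was -1.04.

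For the Pkd1 line the median over the 10 genes was 0.99, against -0.04 over all genes, with 6 genes above 0 and 4 below. Ucp1 stood at -5.68 and Cidea at -2.84, while Lep stood at 3.43, Retn at 3.26, Cfd at 1.53, Car3 at 1.44, Cidec at 1.07 and Adipoq at 0.90. KO and control libraries did not overlap for 2 genes, Ucp1, lower in KO, and Lep, higher in KO. Of all tested genes, 25.5% had every KO library below every control in this comparison and 27.4% had every KO library above. In this comparison 44.4% of all tested genes passed the test, 4388 higher and 4451 lower. Without Pkd1 KO 1 the median of the 10 genes turned to -0.21, and Adipoq turned to -0.08, Cidec to -0.34. On the deposited log2 CPM, which averages log values, the median of the 10 genes was -1.34, with Adipoq at -1.80, Cidec at -0.09, Cfd at -2.33, Car3 at -0.85 and Retn at 0.98. Ucp1, Cidea, Lep, Retn and Fabp4 (at -0.73) kept their signs in every alternative run in which they were fitted. Without Pkd1 KO 3, which held the adrenal RNA, Ucp1 stood at -5.32 and Lep at 3.12.

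The composition of the fat signal was read per gene length, in TPM, which scales counts by transcript length and library size, as ratios to Adipoq within a library. Ucp1 per Adipoq was 7.16, 6.77 and 8.30 in Cep120 controls, 8.79 in Cep120 KO 3 and 8.87, 7.48 and 5.97 in Pkd1 controls. It was 0.108 in Pkd1 KO 1 and 0.0308 in Pkd1 KO 3. The 7 control and Cep120 KO libraries with Adipoq thus stayed between 5.97 and 8.87 while their Adipoq levels ran from 3.95 to 19.7 TPM, and both Pkd1 KO libraries lay far outside that span. In absolute terms Adipoq was 61.3 and 32 TPM in Pkd1 KO 1 and 3, with Ucp1 at 6.60 and 0.984 TPM.

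Over the 9 libraries with Adipoq, Cidea followed Ucp1 (Pearson r 0.947) and Cidec followed Adipoq (0.971). Their ratio is therefore not independent of Ucp1 per Adipoq. Cidea per Cidec gave the same picture. It was 5.12 to 7.94 in Cep120 controls, 6.83 in Cep120 KO 3 and 5.77 to 8.78 in Pkd1 controls, against 0.335 to 0.652 in the 3 Pkd1 KO libraries, where the value of Pkd1 KO 2 rests on 6 Cidea and 15 Cidec counts. Ucp1 per Cidea was 1.15 to 1.42 over the 6 controls and 1.24 in Cep120 KO 3, and 0.192 and 0.140 in Pkd1 KO 1 and 3. It was 1.33 in Cep120 KO 1 and 0.578 in Pkd1 KO 2, which rest on 17 and 9 and on 5 and 6 counts, and is not given for Cep120 KO 2, where Ucp1 was not detected. Compared with Cidea, Ucp1 was thus further below its control level in Pkd1 KO 1 and 3.

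**Figure D2:**
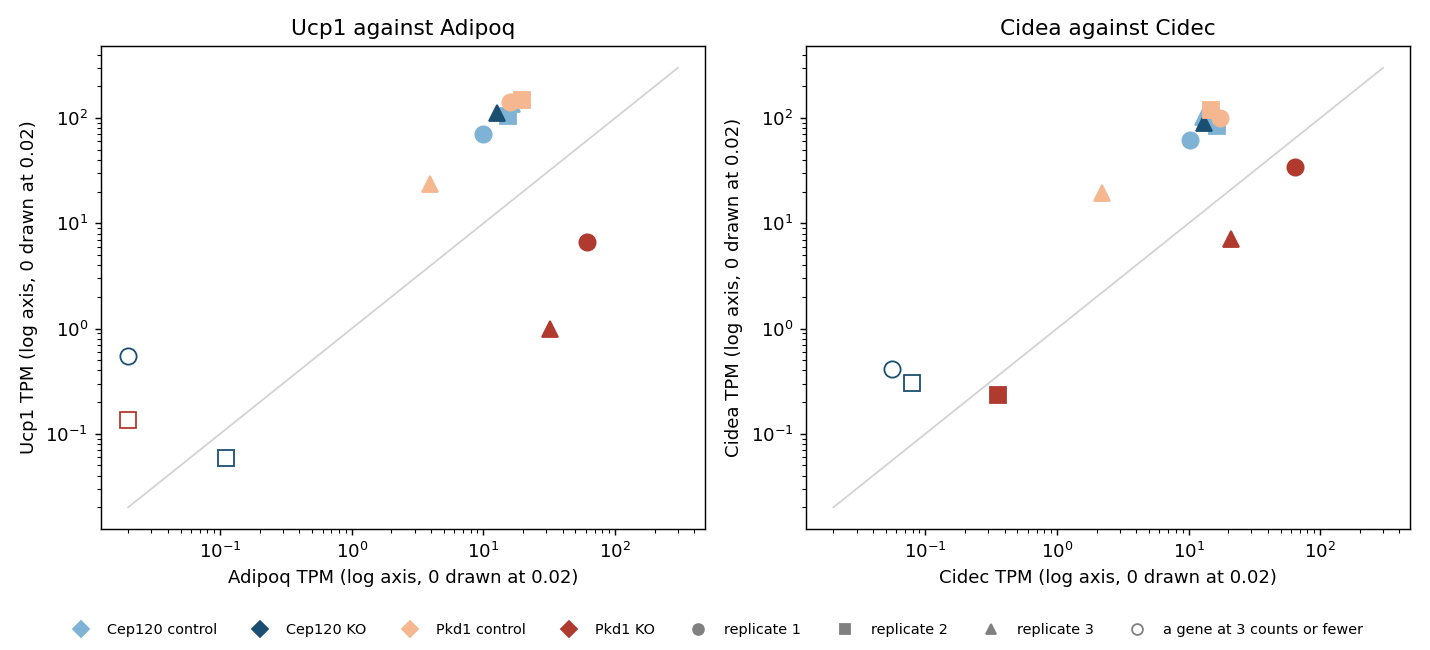
Ucp1 against Adipoq and Cidea against Cidec in the 12 libraries, in TPM on log axes, with the grey line marking equal levels and open symbols a gene at 3 counts or fewer. The 6 controls and Cep120 KO 3 lie along 1 diagonal above the line (Ucp1 per Adipoq 5.97 to 8.87), and Pkd1 KO 1 and 3 lie below the line at 0.108 and 0.0308.

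Other ratios moved less or in the other direction. Cidec per Adipoq was 0.561 to 1.08 in controls, 1.04 in Cep120 KO 3 and 1.05 and 0.657 in Pkd1 KO 1 and 3. Cfd per Adipoq was 6.48 to 11.3 in controls, 8.36 in Cep120 KO 3 and 12.7 and 9.45 in Pkd1 KO 1 and 3. Car3 per Adipoq was 4.20 to 8.12 in controls, 7.52 in Cep120 KO 3 and 8.13 and 6.99 in Pkd1 KO 1 and 3. Cidec, Cfd and Car3 thus kept step with Adipoq in these 9 libraries, with Cfd in Pkd1 KO 1 somewhat above the highest control and Car3 there level with it.

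Retn per Adipoq was 0.0359 to 0.222 in controls and 0.0401 in Cep120 KO 3, against 0.426 and 0.486 in Pkd1 KO 1 and 3. Lep per Adipoq was 0.0128 to 0.0418 in controls and 0.0166 in Cep120 KO 3, against 0.0734 and 0.190 in Pkd1 KO 1 and 3. Both hormones of white fat were thus higher per Adipoq in the Pkd1 KO libraries than in any control. For Lep this ratio is not a measure of fat alone, since Pkd1 KO 2 held 213 Lep counts with no Adipoq. Plin1 per Adipoq was 0.0601 to 0.146 in controls and 0.107 in Cep120 KO 3, against 0.0284 and 0.0348 in Pkd1 KO 1 and 3. Fabp4 per Adipoq was 39.5 to 112 in controls and 49.9 in Cep120 KO 3, against 14.0 and 17.1 in Pkd1 KO 1 and 3. Plin1 and Fabp4 were also lower per Adipoq there, and for Fabp4 the highest ratio was in Pkd1 control 3, the control with the least Adipoq. The Fabp4 ratio too is not a measure of fat alone, since Fabp4 was 42.9 to 211 CPM in the 3 libraries without Adipoq. Fabp4 itself, at 403 and 254 CPM in Pkd1 KO 1 and 3, lay within the range of its controls, 227 to 538 CPM.

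**Figure D3:**
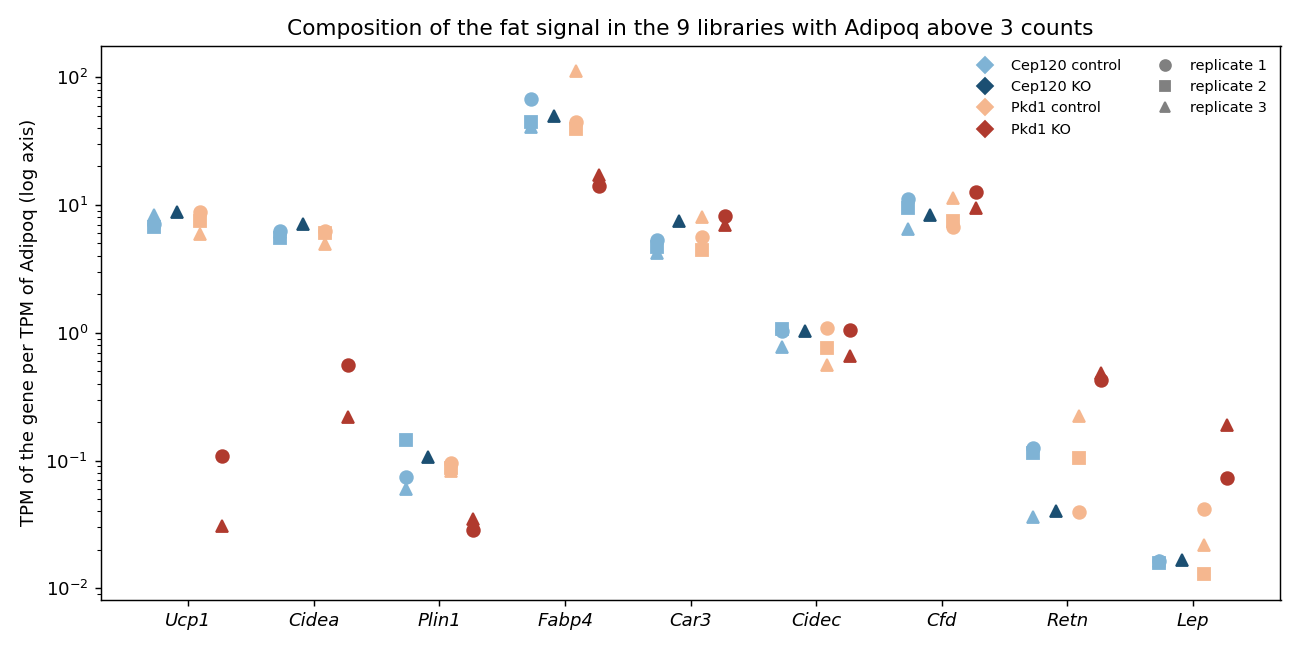
TPM of each fat gene divided by TPM of Adipoq in the 9 libraries with more than 3 Adipoq counts, on a log axis, with 1 point per library. The 2 Pkd1 KO points lie below all others for Ucp1, Cidea, Plin1 and Fabp4, among or level with them for Car3 and Cidec, partly above them for Cfd (12.7 in Pkd1 KO 1), and above all others for Retn and Lep.

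By TPM, Fabp4 was the highest of the 10 genes in every library, from 85.6 TPM in Pkd1 KO 2 to 857 TPM in Pkd1 KO 1. It made up 59% to 77.6% of the summed TPM of the 10 genes in the controls and 36.8% in Pkd1 KO 1. In the 3 libraries without Adipoq it made up 97.4% (Cep120 KO 1), 95.3% (Cep120 KO 2) and 95.7% (Pkd1 KO 2). In the 6 controls Cfd held rank 2 or 3 and Ucp1 rank 2 to 4, with Ucp1 at 23.6 to 147 TPM and Cfd at 44.6 to 148 TPM, ranges that overlap. Cidea held rank 4 or 5 there and Car3 rank 3 to 5. Adipoq and Cidec held rank 6 or 7, at 3.95 to 19.7 and 2.21 to 17.3 TPM, also overlapping, and Lep was the lowest in 5 of the 6 controls. In Pkd1 KO 1 and 3 the order was Fabp4, Cfd, Car3, with Ucp1 at rank 8 and rank 10. Ucp1 and Cidea together made up 7.58% to 21.3% of the summed TPM in controls, 18.9% in Cep120 KO 3, and 1.76% and 0.694% in Pkd1 KO 1 and 3.

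The 10 genes largely varied together. Over 12 libraries the median of the 45 pairwise Pearson correlations of log2 CPM was 0.81, with 4 pairs negative. Over the 9 libraries with Adipoq it was 0.60, with 10 pairs negative and a range of -0.79 to 0.97. There Ucp1 was negative against Adipoq (-0.31), Cidec (-0.19), Cfd (-0.47), Car3 (-0.52), Lep (-0.74) and Retn (-0.79). It was positive against Cidea (0.95), Fabp4 (0.59) and Plin1 (0.15). These libraries share preparation and group, so the correlations are a description. Cep120 controls 1 and 2 were the most alike of the within-group pairs over all genes, with a median absolute log2 difference of 0.17, and all 10 fat genes were still lower in control 1, by a median log2 difference of -0.49. The fat genes thus differed within this pair, the closest over all genes. The pair also differed in Xist, at 59.8 CPM in control 1 and 128 CPM in control 2.

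The 12 other genes that followed the mean of the 10 most closely were taken from 15192 candidates. Adig, which encodes the fat cell protein adipogenin, came first, with a Pearson r of 0.996 over 12 libraries and 0.978 over the 9 that remain without the 3 lowest. The amino acid transporter Slc36a2 (0.977 and 0.871), the melanocortin receptor accessory protein gene Mrap (0.934 and 0.734) and the fatty acid transporter gene Cd36 (0.904 and 0.933) followed. Cox8b, the heart, muscle and brown fat form of a cytochrome oxidase subunit, had 0.913 and 0.271. In Pkd1 KO 3 it lay below every control, and in Pkd1 KO 1 within the control range, while Adipoq was above all controls in both. Cox8b was 4.91 to 38.7 CPM in the 6 controls and 15.4 CPM in Cep120 KO 3. It was 0.0769 and 0.130 CPM in Cep120 KO 1 and 2, and 6.77, 0 and 1.4 CPM in Pkd1 KO. The others, again over 12 and then 9 libraries, were Timp4 (0.907 and 0.770), Prkar2b (0.906 and 0.407), Thrsp (0.895 and 0.563), Bche (0.891 and 0.409), Gm9761 (0.861 and 0.359), Apoc1 (0.854 and 0.645) and Rbp7 (0.849 and 0.220). For Cox8b, Prkar2b, Bche, Gm9761 and Rbp7 the likeness thus rests largely on the 3 lowest libraries. Mrap is also an adrenal gene, and its highest level, 23.1 CPM, was in Pkd1 KO 3.

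Beyond the 10 genes, 66 further fat genes in 5 lists were read from the fit, of which 64 were tested. In the Cep120 comparison none of the 64 passed edgeR's test, 5 had an unadjusted p under 0.05, 54 lay below 0 and the median log2 difference was -0.30. Those 5 were Mlxipl, a sugar-responsive transcription factor of fat synthesis, at 0.93, and G0s2, Aoc3, Plin4 and Agpat2 at -0.87, -0.87, -1.13 and -0.51. DESeq2 called Mlxipl (adjusted p = 0.00752) and no other gene of the lists. Without the filter on low counts, edgeR called 13 of the fat genes lower and 1 higher, beside 0.41% of all 42153 genes lower and 0.406% higher in that setting. Among these lower genes were Cox8b at -1.77, Mrap at -2.07, Adig at -1.37, Scd1 at -1.03, Pparg, the master regulator of fat cell formation, at -1.02, and Cd36 at -0.80. With the filter Cox8b stood at -1.76 with an adjusted p of 0.779 (edgeR), against 1.9e-15 without it. Its Cep120 KO libraries were 0.0769, 0.130 and 15.4 CPM and its Cep120 controls 9.53 to 28.0 CPM. The p-values without the filter thus do not follow the spread of the KO libraries, and these calls are not read as a result.

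In the Pkd1 comparison 10 of the 64 genes rose and 20 fell (edgeR, adjusted p under 0.05), with a median log2 difference of -0.31. Of all 19890 tested genes 44.4% passed there, 4388 higher and 4451 lower. Each list count below stands beside that share. The brown fat and heat production list had 1 gene higher and 5 lower of 13 tested, with a median of -1.51. Kidney tubule genes fell in the same libraries, Slc34a1 and Lrp2 of the proximal tubule at -3.32 and -2.72 and Slc12a3 of the distal convoluted tubule at -2.43, and their part in the list's lower level was not tested. The 5 were Fabp3, a muscle and brown fat fatty acid binding protein, at -2.74 ± 0.35 (SE), Cox7a1, a cytochrome oxidase subunit, at -2.98 ± 0.44, Gk, glycerol kinase, at -2.01 ± 0.24, Cpt1b, which brings fatty acids into mitochondria, at -2.0 ± 0.31, and Ppargc1a, the coactivator of mitochondrial genes, at -1.51 ± 0.18. All 5 were also detected in the libraries without Adipoq. Fabp3 was 215 and 113 CPM in Cep120 KO 1 and 2, which lacked Adipoq, and 244 to 315 CPM in the Cep120 controls, against 24.2 to 50.8 CPM in Pkd1 KO. Ppargc1a was 154 and 92.1 CPM in Cep120 KO 1 and 2 against 42.7 to 53.9 CPM in Pkd1 KO. Cox8b, which was near 0 in the libraries without Adipoq, stood at -3.04 with an adjusted p of 0.100. The 1 higher gene was Dio2, which activates thyroid hormone, at 1.87 ± 0.44, with 4.41 to 9.24 CPM in Pkd1 KO and 1.21 to 2.38 CPM in its controls. Prdm16, a transcription factor of brown fat identity, was 23.7 to 29.7 CPM in Pkd1 KO and 22.6 to 26.5 CPM in its controls.

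The fat cell identity and lipid droplet list had 3 higher and 3 lower of 18, with a median of 0.24. Plin4, a droplet coat protein, was higher at 2.04 ± 0.51, Adrb3, the beta-3 adrenergic receptor of fat, at 2.17 ± 0.55, and Pnpla2, the triglyceride lipase ATGL, at 1.03 ± 0.28. Plin4 was 25.3, 3.67 and 9.01 CPM in Pkd1 KO and 2.61 to 3.32 CPM in its controls, so its 2 high libraries were those with Adipoq. Adrb3 was 4.16, 3.45 and 2.84 CPM in Pkd1 KO, high also in the library without Adipoq. Without Pkd1 KO 1 the adjusted p of Pnpla2 was 0.0547. The lower genes were the insulin-regulated glucose transporter Slc2a4 at -1.62 ± 0.21, Fabp5 at -1.36 ± 0.21 and G0s2, an inhibitor of that lipase, at -0.65. G0s2 passed in 7 of the 12 fits that leave out a library, with an adjusted p of up to 0.208, without Pkd1 control 2.

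Among 16 genes of fat synthesis 2 were higher and 6 lower, with a median of -0.34. Dgat2, which makes triglyceride, stood at -1.72, Gpd1, which makes glycerol phosphate, at -2.08, Mlxipl at -1.32 and Me1, malic enzyme, at -1.53, whereas Srebf1, the regulator of lipid synthesis, stood at 0.90. Gpd1 was 315 and 197 CPM in Cep120 KO 1 and 2 and 42.2 to 76.3 CPM in Pkd1 KO. Among 8 genes of lipid uptake 2 were higher, Slc27a1 at 0.99 and Angptl4, an inhibitor of lipoprotein lipase, at 1.07, and 3 were lower, Acsl1 at -0.73, Vldlr at -0.67 and Lipa at -0.38. Lipa passed in 10 of the 12 fits that leave out a library, with an adjusted p of 0.067 without Pkd1 KO 1. Lpl, lipoprotein lipase itself, was 145, 54.4 and 84.9 CPM in Pkd1 KO against 88.6 to 259.7 CPM in its controls and did not pass. Of 9 genes of fat progenitors and stroma 2 were higher, Pi16 at 2.39 and Pdgfra at 0.72, and 3 lower, Mest at -1.79, Dpp4 at -1.39 and Ly6a at -0.69. Dpp4 was 210 to 296 CPM in Pkd1 controls and 217 and 273 CPM in the Cep120 KO libraries without Adipoq. The share of fat genes called, 30 of 64, stands beside 44.4% of all genes.

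**Figure D4:**
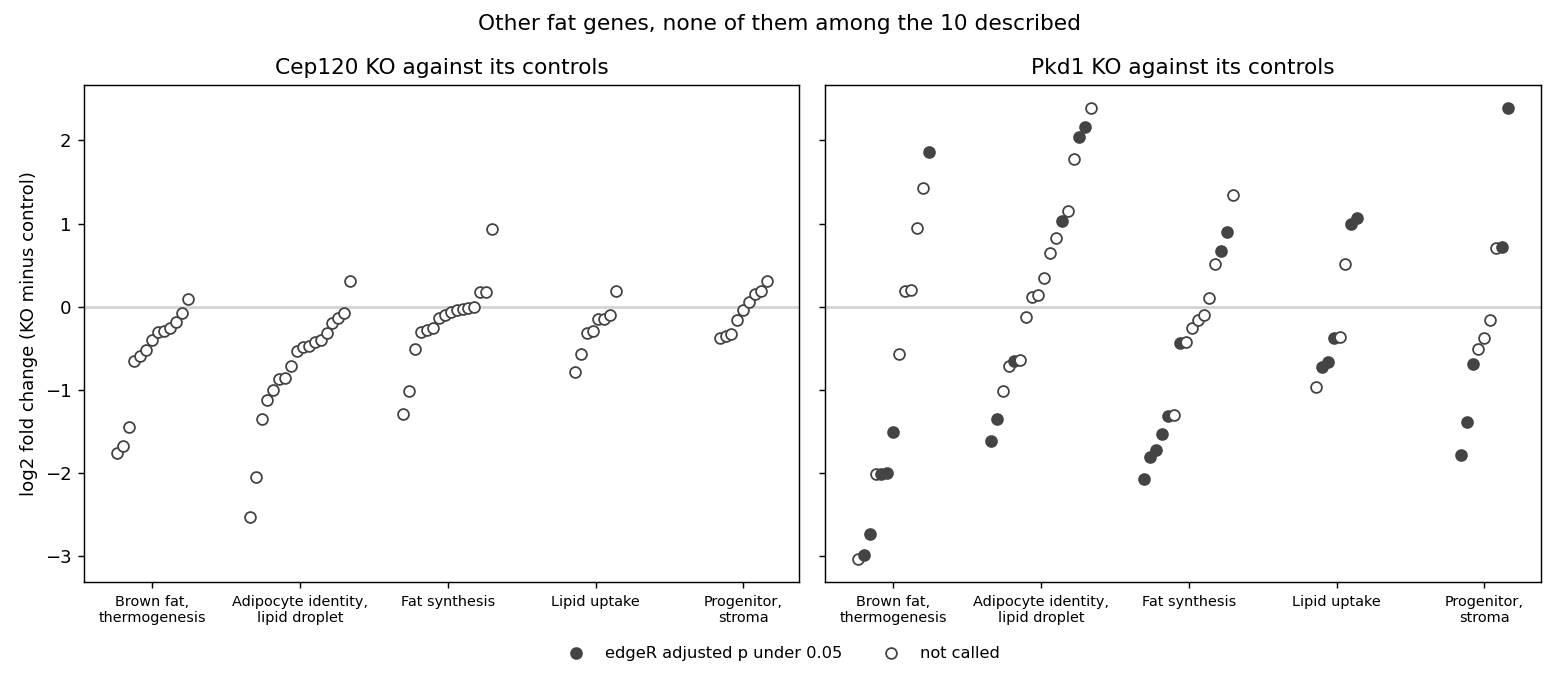
Log2 difference of KO minus control for the 64 tested genes of 5 fat lists, 1 point per gene sorted within its list, filled where edgeR's adjusted p was under 0.05. No point is filled for Cep120 KO, where 54 of 64 lie below 0, and 30 are filled for Pkd1 KO, 10 above 0 and 20 below.

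The effects in the Pkd1 and Cep120 lines differed for 21 of the 64 genes, 8 with a higher and 13 with a lower Pkd1 effect, and 28.1% of all tested genes differed in the same test. When the mean level of the 10 fat genes entered the fit as a term, 8386 genes passed in the Pkd1 comparison in place of 8839. Of these, 8198 were shared with the same sign. In that fit 0 genes passed in the Cep120 comparison, and 13 of the 64 fat genes rose and 21 fell in the Pkd1 comparison. The mean comes from the 10 genes themselves, which moved in opposite directions in Pkd1 KO (Ucp1 at -5.68, Lep at 3.43). It is thus no clean measure of attached fat, whose part in these calls was not tested.

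Markers of other tissues that could be attached or sampled with the kidney were read beside the fat genes. Their counts of called genes in Pkd1 KO stand beside 44.4% of all tested genes. Of 6 mesothelial genes 4 were higher and 1 lower in Pkd1 KO, with a summed level of 857 to 992 CPM against 190 to 240 CPM in its controls. The sum in Pkd1 KO rests largely on Krt19 and Msln. Krt19 was 417 to 576 CPM in Pkd1 KO and 54.4 to 120 CPM in its controls. Gpm6a was lower, at 23.1 to 40.7 CPM against 78.5 to 134 CPM, and Wt1 was 10.4 to 15.4 CPM against 7.20 to 12.4 CPM. Msln, mesothelin, was 297, 268 and 271 CPM in Pkd1 KO and 5.22 to 14.5 CPM in its controls, and it was as high in the Pkd1 KO library without Adipoq as in those with it. Of 8 endothelial genes 6 were lower in Pkd1 KO, with a summed level of 363 to 452 CPM against 619 to 654 CPM. Of 8 kidney genes 4 were lower and 2 higher in Pkd1 KO. Skeletal muscle genes were low in every library, with 5 tested genes summing to 3.55 to 7.79 CPM. Of 9 lymphocyte genes 6 were lower and 1 higher in Pkd1 KO, at a summed level of 17.9 to 18.2 CPM against 17.2 to 20.4 CPM in its controls. All 5 tested adrenal genes were called higher in Pkd1 KO, which rests on Pkd1 KO 3, and 2 of them were called without it. The part of any of these tissues in the fat genes' levels was not tested. Without Pkd1 KO 3 the brown fat list still had 1 gene higher and 5 lower in the Pkd1 comparison.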

How the data were processed

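Whole-kidney RNA was sequenced in 12 mouse libraries. Per the labels' protocols, tissue was ground in liquid nitrogen, lysed in Trizol and column-purified, and a SMARTer Ultra Low kit gave cDNA. The mm9 build, Salmon 0.8.2, featureCounts 1.4.6-p5 of Subread, STAR 2.5.1a and bcl2fastq are named in the submitters' processing notes, with no role or order. The authors deposited estimated counts per Ensembl gene (21.6% of genes not whole), TPM per gene and moderated log2 CPM. How each was made, its strand setting and the prior count of the deposited log2 values are not given in the sources used here. Reads from antisense neighbours of a gene may therefore be included. The transcript table was held only in part.

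Of 55774 lines, 287 repeated a gene ID and were left out, leaving 55487 genes, and estimated counts were rounded. Groups came from titles and genotype labels. R 4.3.3 with edgeR 4.0.16 was used. The filter filterByExpr kept 19890 genes, libraries were scaled by TMM, and 1 quasi-likelihood fit of 12 libraries in 4 groups (common biological coefficient of variation 0.238) gave all comparisons, with Benjamini-Hochberg adjustment and a threshold of 0.05. The SE of a log2 difference is that difference divided by the root of its F statistic. The fit was tested on simulated data. CPM values are TMM-scaled, and correlations use log2 CPM with a prior count of 2. TPM ratios were formed from the deposited TPM.

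The 10 genes and all lists were chosen with earlier results of these data known. Named genes were the 10, up to 5 per list with the smallest p, and the 12 genes most correlated with the mean of the 10 (mean log2 CPM of at least 0). Any other gene named was chosen after its values were seen. Promoters are from RefSeq (GRCm38.p6), whose build differs from that in the notes, and were read by symbol. Cidea, Car3 and Fabp4 had no promoter used here.

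Counts of called genes were recomputed with DESeq2 1.42.0, with upper quartile or RLE scaling, without the filter, with at least 5 CPM in 3 libraries, the replicate number as a block, the 6 libraries of 1 comparison, the deposited log2 CPM with limma 3.58.1, the mean of the 10 genes as a term, and each library left out. The medians and log2 differences of the 10 genes were recomputed in all of these except DESeq2 and the added term, with Plin1 and Retn absent under the 5 CPM filter. TPM ratios and correlations were not recomputed.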

Additional observations from a re-analysis of the deposited data

Results flagged for a closer look

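The effect of KO differed between the Pkd1 and Cep120 lines for 21 further fat genes, by edgeR's test of the difference of the 2 effects (Pkd1 effect minus Cep120 effect, log2, adjusted over all genes tested). These were 21 of 64 tested, beside 28.1% of all tested genes in the same test. All 3 Pkd1 KO libraries and Cep120 KO 1 and 2 lacked Xist, while Cep120 KO 3 and the controls held it, and its part was not tested. Of the 21 differences, 8 were positive. In the fat cell identity list they were Plin4 at 3.167 (adjusted p = 0.00678), Pnpla2 at 1.35 and the amine oxidase gene Aoc3 at 1.21. Others were the stromal gene Pi16 at 2.762, Dio2 at 2.264, Agpat2 at 1.174, Angptl4 at 1.165 (adjusted p = 0.0485) and Srebf1 at 0.9202. The other 13 were negative. In the mitochondrial and brown fat list they were Cox7a1 at -2.33, Fabp3 at -2.136, Gk at -1.756, Cpt1b at -1.477 and Ppargc1a at -1.204. In fat synthesis they were Mlxipl at -2.252 (adjusted p = 0.000125), Gpd1 at -2.039, Me1 at -1.706 and Dgat2 at -1.424. The rest were Mest at -1.753, Slc2a4 at -1.544, Dpp4 at -1.057 and Fabp5 at -0.9325. Of these 21 differences, 15 passed in all 12 fits that leave out a library. Angptl4 passed in 2 of them, with an adjusted p of up to 0.118 without Cep120 KO 3, Fabp5 in 6 (0.0834, without Cep120 KO 3), Mest in 6 (0.0718, without Cep120 control 2), Cpt1b in 7 (0.0548, without Cep120 KO 1), Me1 in 8 (0.0618, without Cep120 control 2) and Pnpla2 in 10 (0.0607, without Pkd1 KO 1). Mlxipl was 14.5 to 18.3 CPM in Cep120 controls and 26.6 to 36.3 CPM in Cep120 KO, against 14.1 to 21.4 CPM in Pkd1 controls and 5.71 to 8.63 CPM in Pkd1 KO. In the Cep120 comparison alone it did not pass edgeR's test (adjusted p = 0.630).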

How the results depend on the processing

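Counts in the Cep120 comparison moved with the filter and the tool. With no filter on low counts (42153 genes tested) 344 genes were called, 171 of them higher, with 1 fat gene higher and 13 lower. In the same setting 18 fat genes were higher in Pkd1 KO, and 19 had a higher Pkd1 than Cep120 effect, against 5 with a filter of 5 CPM in 3 libraries. DESeq2 called 21 genes for Cep120, 9 of them higher, 1 a fat gene. Leaving out 1 library gave 0 to 2 calls for Cep120, 0 to 1 of them higher, and a median of the 10 genes of -5.71 (without Cep120 KO 3) to -1.04 (without Cep120 KO 2). On the deposited log2 CPM that median was -3.92. For Pkd1 it was -1.34 there, and -0.21 without Pkd1 KO 1, a change of sign, to 1.55 without Pkd1 KO 2. Single genes also changed sign, Lep in Cep120 KO to -0.09 without Cep120 KO 2 and Plin1 in Pkd1 KO to 0.33 without Pkd1 KO 2. Fat genes in the Pkd1 comparison numbered 8 to 14 higher and 16 to 22 lower over the 12 fits that leave out a library. Deviations of same-numbered libraries from their group means correlated at -0.14 to 0.18. Libraries of different numbers were not compared in this way, so whether the replicate numbers pair the libraries is not settled. With the replicate block, 0 genes were called for Cep120, 7804 for Pkd1 and 4363 for the difference, with 9 fat genes higher and 19 lower in Pkd1 KO, and medians of the 10 genes of -2.36 and 0.42. Upper quartile scaling moved the median of all genes in the Pkd1 comparison to -0.13. Group means of Ucp1, Cidea, Adipoq, Plin1, Cidec, Cfd and Retn rest on 1 library of 3 in Cep120 KO and on 1 or 2 in Pkd1 KO, and counts under 100 limit Plin1 and, outside Pkd1 KO, Lep and Retn.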
